A study of Mus musculus with 6 samples.

Results

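The genes described here are those whose RNA stood low on the arrays of a control precipitate made with normal rabbit IgG, and showed no such deficit on the arrays of an MVH precipitate and of total testis RNA. A probe was taken as a member when it was listed on all 6 arrays, carried 1 gene symbol, and when the higher of its 2 IgG values lay at least 1 on the log2 scale, a factor of 2, below the lowest of its other 4 values. Probes whose lower MVH value was at least about 1.5-fold above both total RNA values were left out, and so were symbols starting with Kif, Zfp, Spata, Ddx, Eif or Psm. Of 15332 probes listed on all arrays with 1 symbol, 86 (0.561%) passed the gap, 14 of these were left out, and 72 members (0.47%) remained, each for a different gene. The values that chose the members are given below as a description and carry no test.

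The study set out to find RNAs bound by MVH in testis of C57/BL6 mice, whose age the labels do not give. Its 3 groups of 2 arrays each were RNA brought down with an antibody against MVH (MVH precipitate), RNA brought down with normal rabbit IgG (IgG precipitate), and total RNA, which the labels call WCE and for which they name no antibody. Per the labels' protocols, cells of a pair of testes were lysed, the cleared lysate was first passed over Protein A beads, antibody and fresh beads were then added, and RNA was extracted from the beads after repeated washes. The 2 antibodies came from different suppliers. Nothing in the labels says that arrays 1 and 2 came from separate mice, so p-values measure only the spread between these arrays, which may be technical.

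MVH, also called DDX4, is an RNA helicase of germ cells found in germ granules. A precipitate with an irrelevant antibody holds RNA that sticks to beads or antibody without the target protein, and serves as the background of the method. In the seminiferous tubule, spermatogonia give rise to spermatocytes, which pass through meiosis to become round and then elongating spermatids. Late germ cells store many mRNAs for the sperm tail, the acrosome and sperm metabolism in ribonucleoprotein particles and translate them with delay.

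The arrays carried the signature of testis. Prm1 and Tnp1, which package sperm chromatin, lay at or above the 99.98th percentile of total RNA. Ddx4 itself read 1396 and 1559 on the MVH arrays, 1468 and 1391 on the IgG arrays and 860 and 1306 in total RNA, so that the groups overlapped between the precipitates. The values here and below are intensities scaled to a median of 30 on each array. The arrays within a group had correlations of 0.986 (MVH), 0.978 (IgG) and 0.988 (total RNA). IgG precipitate 2 stood apart in its deposited values, with a median of 20.8 against 30 on the other arrays and 1383 blank probes against 508 to 1063. A low value with IgG is low relative to the other RNAs on that array, since amplified RNA was hybridised and arrays were centred on their medians, and how much RNA the beads held is not known. In RNA of a whole organ, fewer cells of a type and less RNA per cell cannot be told apart.

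Over the 72 members, the MVH precipitate stood above the IgG precipitate by 2.23-fold to 10.6-fold, with a median log2 difference of 1.75. The IgG precipitate stood below total RNA by 2.12-fold to 4.87-fold, with a median of -1.46. Over all 15332 probes these medians were 0.08 and -0.09. Both differences share the IgG arrays. The standard error of a member's difference in the fit across all probes was 0.26 to 0.47 (limma, n = 2 per group). The members were about as low on one IgG array as on the other: 35 were lower on IgG precipitate 2 and 37 on IgG precipitate 1. The number of members depends on single arrays. It was 375 without IgG precipitate 1, 280 without IgG precipitate 2 and 142 without total RNA 1, and 181 with the values as deposited, without centring.

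**Figure D1:**
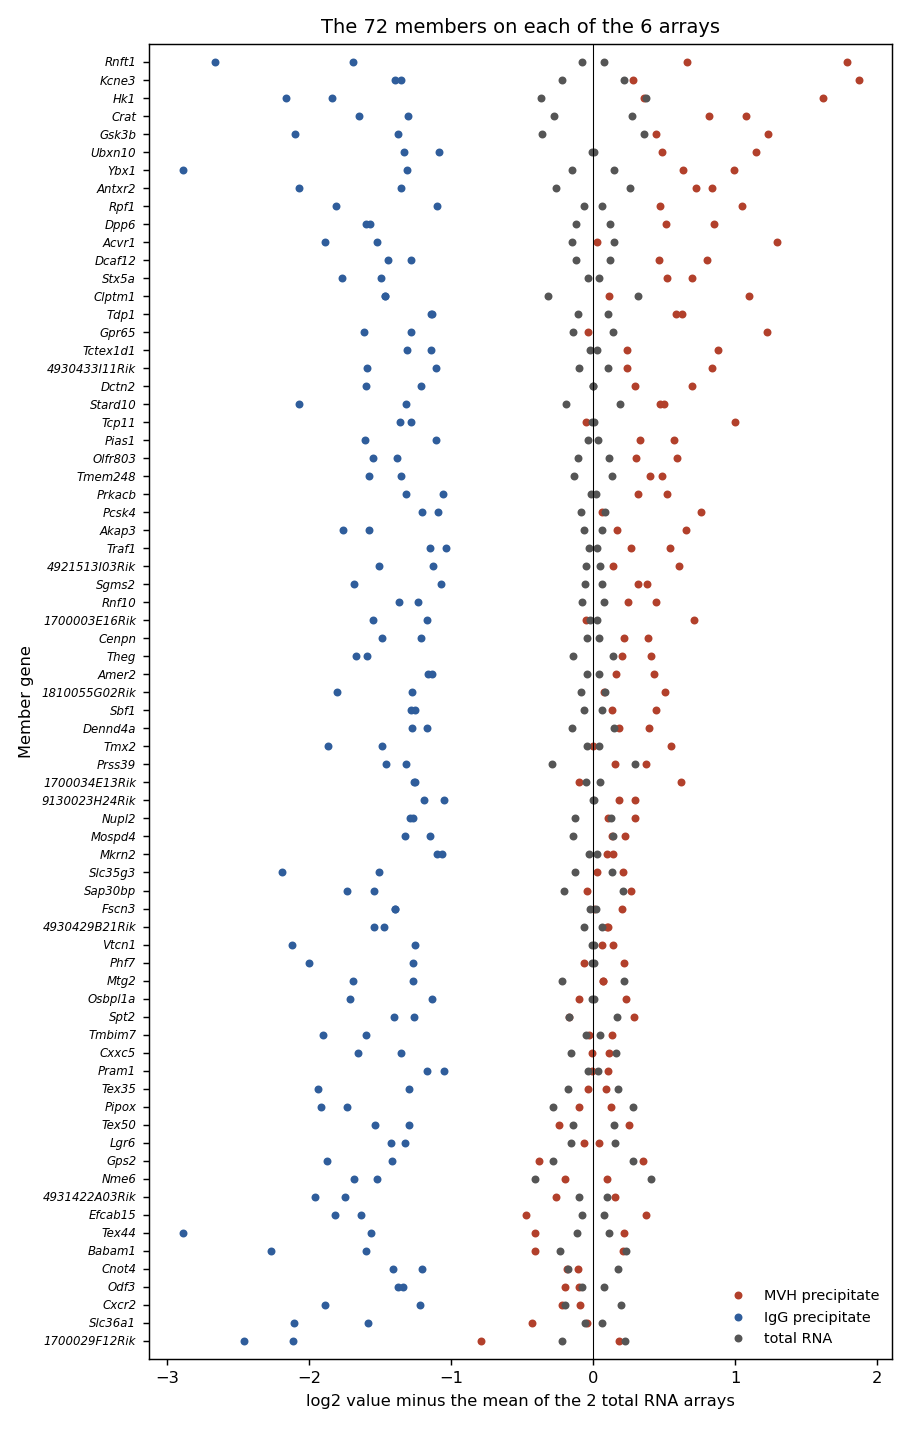
Each of the 72 members is a row, ordered by its mean in the MVH precipitate relative to total RNA, and each point is 1 array, as the log2 value minus the mean of the 2 total RNA arrays. All IgG points lie left of -1, as the rule requires, while the MVH points lie around and to the right of the total RNA points, which are at most 0.815 apart.

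Probes picked with 1 IgG array were also read on the other, which gives no independent test. Of 274 probes that met the rule on IgG precipitate 1 alone, 72 (26.3%) also lay at least 1 below on IgG precipitate 2, where 2.81% of all probes did. Their median on IgG precipitate 2 relative to total RNA was -0.85, against -0.15 over all probes. Of 375 picked on IgG precipitate 2 alone, 72 (19.2%) lay at least 1 below on IgG precipitate 1, where 1.99% of all probes did, and their median there was -0.62 against -0.01. These shares are descriptions, since the other 4 arrays are the same in both steps. Those arrays had to be high for a probe to be picked, and the remaining IgG array was read against them. The 72 found both ways are the members themselves.

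Akap3 and Odf3 are members tied to the sperm tail, and Tctex1d1, Ubxn10 and Dctn2 are members tied to dynein or cilia. Of 37 measured genes of elongating spermatids, Akap3 and Odf3 alone were members (5.41%), against 0.476% of all genes. Odf1, Odf2, Odf4 and Akap4, also on that list, were not. The list of axonemal dyneins and cilia- and flagella-associated proteins held 0 members among 91 measured genes, and so takes in none of the genes named here. Akap3, which anchors protein kinase A in the fibrous sheath of the tail, read 313 and 223 on the MVH arrays, 66.7 and 58.8 on the IgG arrays and 208 and 191 in total RNA. Both IgG values were thus well below every other value, and the log2 difference between MVH and IgG was 2.08 ± 0.29 (SE of the fit, n = 2 per group). Odf3, named as an outer dense fibre protein of the tail, read 4915 and 4588 with MVH, against 2087 and 2029.9 with IgG and 4997 and 5558 for total RNA. It was the only member of which both MVH arrays lay below both total RNA arrays, by a small margin. Tctex1d1, of the dynein light chain family, read 2876 and 4489.6 with MVH, against 982 and 1108 with IgG and 2400.4 and 2481 for total RNA. Ubxn10, a UBX-domain protein that takes part in building cilia, read 379.6 and 601 with MVH, against 128 and 108 with IgG and 273 and 269.9 for total RNA. Dctn2, which encodes the dynamitin subunit of the dynein partner dynactin, read 1792 and 1354 with MVH, against 478 and 365 with IgG and 1105 on both total RNA arrays.

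Genes known from testis and spermatids were among the brightest members. Phf7, a chromatin reader and ubiquitin ligase that acts when histones are exchanged for protamines, was the brightest, at 16950.3 and 20642 with MVH, against 4428 and 7377 with IgG and 17804 and 17673 for total RNA. Fscn3, the testis form of the actin-bundling protein fascin, read 7936 and 9101 with MVH, against 2994 and 2992 with IgG and 8003 and 7777 for total RNA. Tcp11, a t-complex gene of sperm function, read 11757 and 5679 with MVH, against 2300.5 and 2419.9 with IgG and 5858 and 5923 for total RNA. In all 3 genes the IgG arrays lay below total RNA by 2.5-fold to 3.1-fold, and only Tcp11 had MVH arrays that differed by a factor near 2. Theg, named for its expression in haploid germ cells, read 3865 and 3357 with MVH, against 968 and 916 with IgG and 2650.5 and 3214 for total RNA. Tex35, Tex44 and Tex50 are testis-expressed genes of little-known function. Tex35 read 5322 and 5797 with MVH, against 1422 and 2215 with IgG and 4824 and 6149 for total RNA, while Tex50 was 2.68-fold higher with MVH than with IgG at a lower intensity. Tex44 read 382 and 247 with MVH, against 111 and 44.3 with IgG and 304 and 355 for total RNA, and its IgG arrays differed widely.

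Enzymes were among the members too, some of them known from sperm or testis. Hk1, a hexokinase that starts glycolysis and has a sperm form, read 1942 and 811 with MVH, against 141 and 176 with IgG and 815 and 489 for total RNA, a difference of 2.99 ± 0.44 between MVH and IgG on the log2 scale (SE of the fit, n = 2 per group), and its IgG arrays lay 4.01-fold below total RNA. Prss39, a serine protease of the testis, read 4118 and 3552 with MVH, against 1157 and 1276 with IgG and 2604 and 3898 for total RNA. Pcsk4, the proprotein convertase of sperm, was dimmer, at 145 and 89.5 with MVH, against 37.2 and 40.2 with IgG and 91.2 and 80.9 for total RNA, and lay just inside the gap. Crat, a carnitine acetyltransferase of mitochondria and peroxisomes, read 937 and 781 with MVH, against 179 and 142 with IgG and 368 and 536 for total RNA. Prkacb, a catalytic subunit of protein kinase A, read 756 and 874 with MVH, against 293 and 244 with IgG and 616 and 601 for total RNA. The MVH values of Crat lay above both total RNA values, as did those of Prkacb, though the fit called neither.

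**Figure D2:**
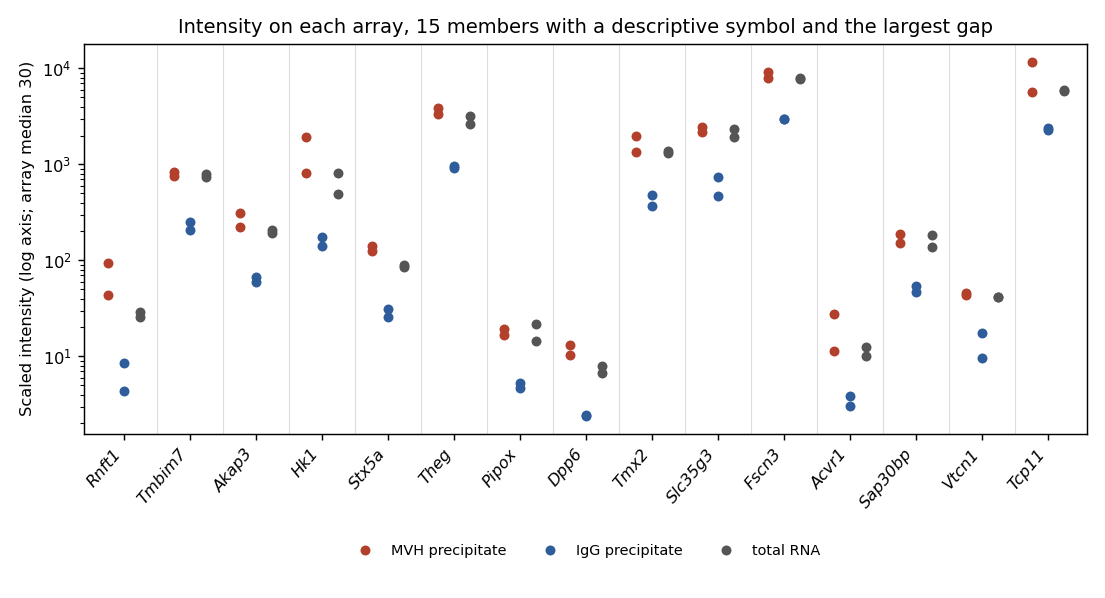
Scaled intensity (log axis, array median 30) of the 15 members with a descriptive symbol and the largest gap, with 2 points per group for the MVH precipitate, the IgG precipitate and total RNA. In each gene both IgG points lie below the other 4, across intensities that run from 2.4 for Dpp6 with IgG to 11757 for Tcp11 with MVH.

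The upstream sequences of 4 of the 5 members brightest in total RNA are shown because these genes, all named above, share a short match. Of the 4, only Odf3 is on a list of cell type markers used below. Sequences are those of RefSeq on assembly GRCm38.p6, 250 bases up to the annotated start, 5′ to 3′ on the gene's strand, with GTTGCC or its reverse complement in capitals. These letters are the core of the X-box bound by RFX factors, which include RFX2 of spermatids. The windows lie at chr6:28427651-28427900 (plus strand) for Fscn3, chr17:28080640-28080889 (minus strand) for Tcp11, chr1:157108659-157108908 (minus strand) for Tex35 and chr7:140847666-140847915 (plus strand) for Odf3.
Fscn3: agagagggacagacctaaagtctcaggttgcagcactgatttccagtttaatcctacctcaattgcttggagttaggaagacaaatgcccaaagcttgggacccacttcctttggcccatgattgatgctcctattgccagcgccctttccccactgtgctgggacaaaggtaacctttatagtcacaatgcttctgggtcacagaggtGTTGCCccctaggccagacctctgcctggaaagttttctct
Tcp11: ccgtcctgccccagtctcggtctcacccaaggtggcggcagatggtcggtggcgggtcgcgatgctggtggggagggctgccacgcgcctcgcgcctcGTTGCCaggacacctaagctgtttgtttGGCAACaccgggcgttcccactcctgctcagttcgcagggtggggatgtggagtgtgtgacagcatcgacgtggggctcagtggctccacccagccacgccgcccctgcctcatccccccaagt
Tex35: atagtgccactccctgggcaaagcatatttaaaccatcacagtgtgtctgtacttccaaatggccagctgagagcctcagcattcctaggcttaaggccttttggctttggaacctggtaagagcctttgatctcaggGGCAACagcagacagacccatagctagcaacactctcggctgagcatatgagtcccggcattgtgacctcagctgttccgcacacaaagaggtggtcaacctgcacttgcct
Odf3: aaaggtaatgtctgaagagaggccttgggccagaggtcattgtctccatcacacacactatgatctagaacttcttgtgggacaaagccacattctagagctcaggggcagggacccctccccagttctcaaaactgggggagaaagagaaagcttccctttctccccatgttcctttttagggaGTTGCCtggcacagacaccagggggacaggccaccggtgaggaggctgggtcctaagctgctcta

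The fifth, Phf7, has no such match in its window. Of the 72 members, 60 had a promoter in the table used here. Any listed start of a gene and both strands were taken. GTTGCC was found in 11 of the 60 (18.3%) and in 1461 of 12149 measured genes (12%). Besides the 4 shown, these were Tctex1d1, Kcne3, Tmx2, Prkacb, Dpp6, Rnf10 and 4930433I11Rik. The TATA box TATAAA was found in 10 of the 60 (16.7%) and in 11.1% of measured genes, and CCAAT in 28 (46.7%) against 39.5%. The full cyclic AMP response element TGACGTCA was found in 0 of the 60, against 2.58% of measured genes, and its core TGACG, which the full element contains, in 12 (20.0%) against 25.9%. The E-box CACGTG was found in 6 (10.0%) against 8.82% and the GC box GGGCGG in 26 (43.3%) against 54.4%. The windows of the members had a median GC content of 53.8%, against 58.0% over measured genes. A match is a description of the letters and shows no binding, and the arrays measured RNA, not transcription.

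Several members are known only by their RIKEN clone names. Part of these names come from adult testis libraries, and 7 of 229 measured genes with such names (3.06%) were members, against 2 of 251 with other RIKEN names (0.797%) and 0.476% of all 15130 genes. The list of clone names was drawn up after the members were seen. The named testis clones were also brighter in total RNA, with a median scaled intensity of 226 against 25.2 for other clones and 37.8 for all genes. 4931422A03Rik read 433 and 324 with MVH, against 100.1 and 115 with IgG and 416 and 362 for total RNA, so that its groups with MVH and total RNA overlapped. 1700029F12Rik, at 318 and 163 with MVH, against 65.1 and 51.2 with IgG and 328 and 241 for total RNA, was the member furthest below total RNA with IgG. 1700034E13Rik was the brightest of them, at 4138 and 6803 with MVH, against 1846 and 1861 with IgG and 4587 and 4284 for total RNA. The others, 4930429B21Rik, 1700003E16Rik, 4921513I03Rik and 4930433I11Rik, were 3.06-fold to 3.70-fold higher with MVH than with IgG. The remaining clone names, 1810055G02Rik and 9130023H24Rik, were 3.56-fold and 2.56-fold higher. Of 71 members matched to RefSeq, 68 are protein coding, 2 (4930429B21Rik and 4921513I03Rik) are long noncoding RNAs and 1 (Mospd4) is a transcribed pseudogene. Spt2 kept the name of the array's annotation, which RefSeq did not match.

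Some members act on RNA or chromatin, and lists of such genes held few members. Of the members named in this paragraph, these lists take in Cnot4 alone, and so leave out Nupl2, Babam1 and Tdp1. The set held 1 of 188 chromatin modifiers and remodellers (0.532%), 1 of 52 mRNA decay genes (1.92%) and 0 of 111 splicing factors, 67 DNA repair genes and 62 nuclear pore and transport factors, against 0.476% of all genes. Ybx1, a Y-box protein that binds and stores mRNA, read 5749.9 and 4497 with MVH, against 1166 and 392 with IgG and 3204 and 2617 for total RNA. Its IgG arrays differed more than those of any other member, by 1.57 on the log2 scale, yet both stayed below all other arrays. Cnot4, the ubiquitin ligase tied to the CCR4-NOT deadenylase, read 176 and 167 with MVH, against 82.4 and 71.4 with IgG and 168 and 214 for total RNA. Nupl2, of the nuclear pore, read 444 and 508 with MVH, against 169 and 171 with IgG and 378 and 452 for total RNA. In both genes the arrays of MVH and total RNA overlapped. Rpf1, a ribosome production factor, was 4.64-fold higher with MVH than with IgG, and Mtg2, a GTPase of the mitochondrial ribosome, 2.91-fold, at intensities of 2.9 and 2.16 with IgG. Among chromatin and transcription genes, Cxxc5, a CpG-binding zinc finger protein, read 1359 and 1476 with MVH, against 433 and 536 with IgG and 1525 and 1224 for total RNA. Its arrays with MVH and of total RNA overlapped. Sap30bp, which binds the SAP30 corepressor subunit, was 3.37-fold higher with MVH than with IgG and Gps2, of the NCoR corepressor complex, 3.09-fold. Cenpn, a centromere protein, read 1138 and 1009.9 with MVH, against 309.6 and 376 with IgG and 893 and 845 for total RNA. For Cenpn the MVH arrays were clear of total RNA. Babam1, of the BRCA1-A repair complex, was 3.56-fold higher with MVH than with IgG, and Tdp1, which frees DNA ends of trapped topoisomerase, 3.35-fold. Pias1, a SUMO ligase, was 3.50-fold higher.

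Ubiquitin ligases and membrane proteins were spread over a wide range of intensity. Rnft1, a membrane-bound RING ligase, had the largest gap and the largest ratio of MVH to IgG, at 43.4 and 95.0 with MVH, against 8.5 and 4.33 with IgG and 29.0 and 26.0 for total RNA. Its MVH arrays differed by a factor above 2, and its IgG values lay in the dim range, so the size of its ratio is uncertain. Dcaf12, a substrate receptor of a cullin ligase, read 2339 and 2956 with MVH, against 696 and 622 with IgG and 1558 and 1838 for total RNA. Rnf10 and Mkrn2, both with RING domains, were 3.12-fold and 2.30-fold higher with MVH than with IgG, and Mkrn2 was the member nearest to total RNA with IgG. Of 261 RING, HECT, F-box and cullin ligase genes matched by symbol, Rnf10 alone was a member (0.383%), close to the 0.476% of all genes. That pattern of symbols takes in neither Rnft1 nor Dcaf12 nor Mkrn2.

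Some members act in membrane traffic or on lipids. The set held 1 of 206 vesicle coat, SNARE and sorting genes (0.485%) and 1 of 126 genes of Rab GTPases and their regulators (0.794%). It held 0 of 124 fatty acid and phospholipid enzymes. Of the members named in this paragraph, these lists take in Stx5a and Dennd4a alone. Stx5a, a SNARE of traffic to the Golgi, stood at 125 and 141 with MVH, against 30.9 and 25.5 with IgG and 84.6 and 89.4 for total RNA. Tmx2, a thioredoxin-related protein of the endoplasmic reticulum, read 1347 and 1976 with MVH, against 369.8 and 481 with IgG and 1310.5 and 1388 for total RNA. Tmbim7, of the Bax inhibitor family of membrane proteins, read 754 and 841 with MVH, against 205 and 253 with IgG and 741 and 795 for total RNA. Of these 3 genes, Stx5a alone had MVH arrays clear of total RNA, and the MVH arrays of Tmx2 differed by 0.55 on the log2 scale. Stard10, a lipid transfer protein, read 5659 and 5779 with MVH, against 1639 and 970.1 with IgG and 3574 and 4662 for total RNA. Sgms2, a sphingomyelin synthase, read 1544 and 1611 with MVH, against 387 and 590.5 with IgG and 1189.9 and 1292 for total RNA. For both lipid genes the MVH arrays lay above both total RNA arrays. Tmem248 and Clptm1, membrane proteins, were 3.75-fold and 4.21-fold higher with MVH than with IgG. Osbpl1a, an oxysterol-binding protein, and Dennd4a, an activator of Rab GTPases, were dim members, 2.81-fold and 2.84-fold higher. Dennd4a is the only member gene with a second probe, and that brighter probe did not share the pattern, at 104 and 135 with MVH, against 54.5 and 108 with IgG and 47.2 and 50.7 for total RNA.

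Among transporters and channels, Slc35g3, of the nucleotide sugar carrier family, read 2448 and 2156 with MVH, against 745 and 465 with IgG and 1937 and 2321 for total RNA. Slc36a1, an amino acid carrier, read 37.9 and 49.6 with MVH, against 11.9 and 17.0 with IgG and 49.1 and 53.3 for total RNA. Kcne3, an accessory subunit of potassium channels, read 1734 and 5204 with MVH, against 559 and 541 with IgG and 1226 and 1655 for total RNA, and its MVH arrays were among the least alike. Dpp6, a partner of potassium channels, read 10.4 and 13.1 with MVH, against 2.40 and 2.45 with IgG and 6.70 and 7.90 for total RNA. The set thus held 2 of 309 solute carrier genes (0.647%) and 1 of 228 genes of channels and pumps (0.439%).

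Signalling genes were mostly dimmer. Gsk3b, a kinase of the Wnt and insulin pathways, read 196 and 337 with MVH, against 33.5 and 55.5 with IgG and 112 and 184 for total RNA. Amer2, which binds the Wnt pathway protein APC, was 2.72-fold higher with MVH than with IgG. Acvr1, a receptor of the bone morphogenetic protein family, read 11.4 and 27.5 with MVH, against 3.90 and 3.03 with IgG and 10.1 and 12.4 for total RNA. The MVH arrays of Acvr1 straddled a total RNA array, while those of Gsk3b lay just above both. Lgr6, a receptor for R-spondins, was 2.58-fold higher with MVH than with IgG and lay at a like level in total RNA. Sbf1, a phosphatase-like protein whose loss makes male mice infertile, was 2.94-fold higher with MVH than with IgG. Antxr2, a receptor for matrix proteins and anthrax toxin, was 5.63-fold higher with MVH than with IgG, again at a dim level with IgG. Some members are best known from immune cells: Cxcr2 and Gpr65, receptors of leukocytes, Traf1 and Pram1, adaptor proteins, and Vtcn1, an inhibitory ligand of T cells. They were 2.23-fold to 4.12-fold higher with MVH than with IgG, and Cxcr2 and Gpr65 lay between 6.40 and 10.4 in total RNA. Of 15 markers of macrophages, lymphoid and blood cells, 0 were members.

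The remaining members fall in no such group. Efcab15, an EF-hand protein, was bright, at 6056 and 3379.6 with MVH, against 1329 and 1512 with IgG and 4952 and 4435 for total RNA. Mospd4 read 1902 and 2023 with MVH, against 691 and 781 with IgG and 1570.1 and 1912 for total RNA. Nme6, of the nucleoside diphosphate kinase family, was 2.93-fold higher with MVH than with IgG, Pipox, a peroxisomal oxidase, 3.58-fold, the olfactory receptor gene Olfr803 3.76-fold and Spt2 2.63-fold. Members just inside the gap were Cxcr2 (1.00), 4930433I11Rik, Traf1, Mospd4 and Pcsk4 (each 1.01). Just outside it, among probes that met the rest of the rule, lay Ttll4 (0.99), Efna2 (0.98), the glycolytic gene Tpi1 (0.98), Ppp1r2-ps9 (0.97) and Ccnd3 (0.97).

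The members were bright as a group. Their median in total RNA was 234, against 37.4 over all 15332 probes, and 46 of the 72 lay in the brightest 30% of probes. The share of probes that were members was 1.43% in the brightest 10% and 0.0% in the dimmest 10%. Still, 11 members were under 10 on both IgG arrays: Rnft1, Pipox, Dpp6, Acvr1, Sbf1, Gpr65, Antxr2, Mtg2, Osbpl1a, Dennd4a and Cxcr2. Their ratios are less certain, and with an offset of 4 added before log2, 49 of the 72 members still met the rule. The genes of members spanned a median of 15542 bases of genome, against 20939 over all genes matched.

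**Figure D3:**
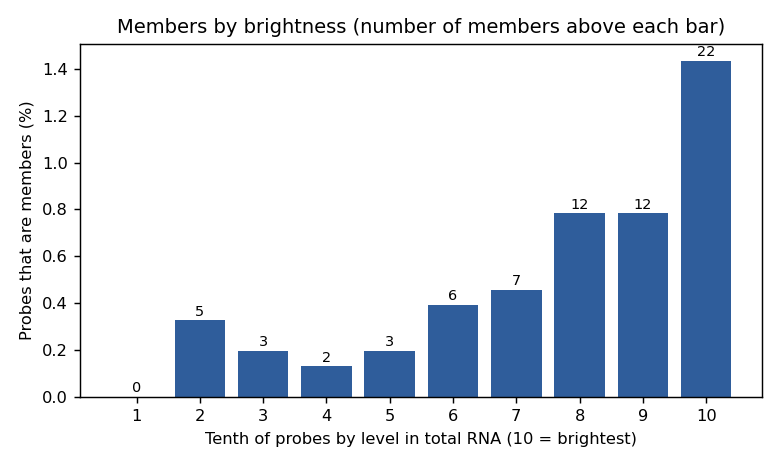
Share of probes that are members (bars, in percent) in each of 10 equal bins of the 15332 probes ordered by level in total RNA, with the number of members above each bar. The share is 1.43% in the brightest bin, with 22 members, and 0.0% in the dimmest.

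Lists of cell type markers and gene families were then read against the set. They were drawn up with earlier results of these data known, and carry no test. Of 37 measured genes of elongating spermatids, Akap3 and Odf3 were members (5.41%), and of 44 genes of round spermatids and acrosome, Hk1 was (2.27%), against 0.476% of all genes. Of 46 Tex, Tsga and related testis-expressed genes, 5 were members (10.9%): Tcp11, Tex44, Tex35, Tctex1d1 and Tex50. This list was matched by symbol. It took in Tcp11, a t-complex gene, and Tctex1d1, of the dynein light chain family. The lists of spermatogonia (25 genes), meiotic prophase spermatocytes (36), Sertoli cells (27), Leydig cells (16) and peritubular and vascular cells (22) held 0 members. Only 3 members were in any cell type list, and 43 were in no list of cell types, functions, families or clone names.

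The lists were also read with the size of the gap set aside. Both IgG arrays lay below the other 4 in 20.2% of all genes (20.2% of probes as well). This held for 16 of 37 elongating spermatid genes (43.2%), 21 of 44 round spermatid and acrosome genes (47.7%) and 20 of 46 testis-expressed genes (43.5%). The spermatid lists were mixed, and some of their genes stood higher with IgG than in total RNA. On the log2 scale, Plcz1 did so by 1.99, Cylc2 by 1.23, Crisp2 by 0.96 and Spag16 by 0.94. For Prm1 and Tnp1 this difference was -0.15 and 0.05. Cabyr, a calcium-binding protein of the fibrous sheath, was close to the gap, at 1020 and 1080 with MVH, against 404 and 416 with IgG and 764 and 1040 for total RNA. The list of sperm glycolysis and energy shares genes with the spermatid lists, among them Hk1, Gapdhs, Pgk2 and Ldhc. Of its 35 genes, 16 (45.7%) lay below with IgG. Besides Hk1, these included Gapdhs, the sperm form of a glycolytic dehydrogenase, at 4150 and 3400 with MVH, against 1880 and 2070 with IgG and 3820 and 3610 for total RNA, and Pgk2, the testis form of phosphoglycerate kinase, whose IgG arrays lay 1.29 below total RNA on the log2 scale. Other genes of this list stood higher with IgG than in total RNA, among them Pfkl by 1.65, Pgam1 by 1.52, Ldhb by 1.46, Ak1 by 1.11 and Pfkp by 0.71 on the log2 scale.

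In contrast to these lists, 1 of 16 Leydig cell markers (6.25%), 3 of 27 Sertoli cell markers (11.1%), 5 of 36 meiotic genes (13.9%) and 5 of 25 spermatogonial genes (20.0%) lay below with IgG. The median difference between IgG and total RNA was -0.47 for elongating spermatid genes, -0.37 for round spermatid and acrosome genes, 0.81 for Leydig cell markers and 0.12 for Sertoli cell markers, against -0.09 for all genes. Genes of germ granules and the piRNA pathway, where MVH lies, were near all genes, at 6 of 28 (21.4%) with 0 members. Axonemal dynein and cilia genes, though they too serve the sperm tail, had 13 of 91 (14.3%) and 0 members.

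Spermatid genes are bright, so the lists were also read among the 4576 genes of the brightest 30%, a step added after the data were seen. There 26.0% of genes lay below with IgG, against 16 of 34 elongating spermatid genes (47.1%), 19 of 41 round spermatid and acrosome genes (46.3%) and 18 of 36 testis-expressed genes. Members made up 1.01% of these bright genes and 13.9% of the testis-expressed ones. Fatty acid and phospholipid enzymes also stood out there, with 24 of 47 (51.1%) below with IgG, though none was a member. Shares above that of all bright genes were also seen for sperm glycolysis and energy (46.9% of 32), testis clone names (43.3% of 134), olfactory receptors (42.9% of 14), ADAM and ADAMTS proteases (41.7% of 12), the kinase list (39.2% of 51) and Tmem and Fam genes (36.5% of 104). Some other lists of bright genes had low shares. Of 43 bright cytosolic ribosomal protein genes 2 (4.65%) lay below with IgG, and of 77 bright respiratory chain genes 4 (5.19%), with 0 members in both. The lists were not matched in brightness. Median scaled intensity in total RNA over each whole list was 8000 for elongating spermatids and 2990 for round spermatids and acrosome. It was 2000 for cytosolic ribosomal proteins and 1620 for the respiratory chain. Whether brightness accounts for the shares was not tested.

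**Figure D4:**
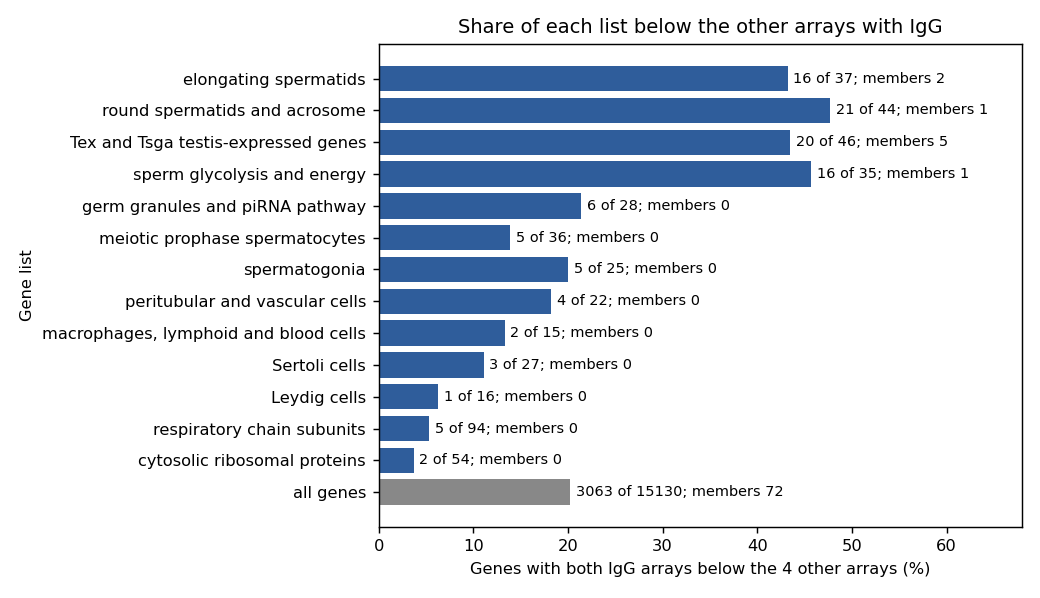
Bars give the percent of measured genes of each list whose 2 IgG arrays both lay below the other 4 arrays, with the count and the number of members beside each bar. The lists of spermatids, testis-expressed genes and sperm glycolysis reach 43.2% to 47.7%, against 20.2% of all genes (grey).

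The level with MVH relative to total RNA rests on values that also chose the members, since the gap was taken to the lowest of the MVH and total RNA arrays and probes clearly higher with MVH were removed. The values are therefore a description. Of the 72, 60 had a higher mean with MVH and 12 a lower one, with a median log2 difference of 0.29, against -0.01 over all probes. Both MVH arrays lay above both total RNA arrays in 34 of the 72 (47.2%), against 20.5% of all probes, and the arrays of the 2 groups overlapped in 37. The highest were Rnft1 (1.23), Kcne3 (1.08), Hk1 (0.99), Crat (0.95) and Gsk3b (0.84), and the lowest among named genes were Slc36a1 (-0.24), Cxcr2 (-0.15), Odf3 (-0.15), Cnot4 (-0.15) and Babam1 (-0.10). In limma's fit none of the 72 passed an adjusted p of 0.05 in either direction, and 8 were higher at an unadjusted p under 0.05. The fit called 0.00459% of all 21793 probes higher and 0.00918% lower. The median over the members was 0.14 without MVH precipitate 1 and 0.17 without MVH precipitate 2, each with members chosen anew.

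**Figure D5:**
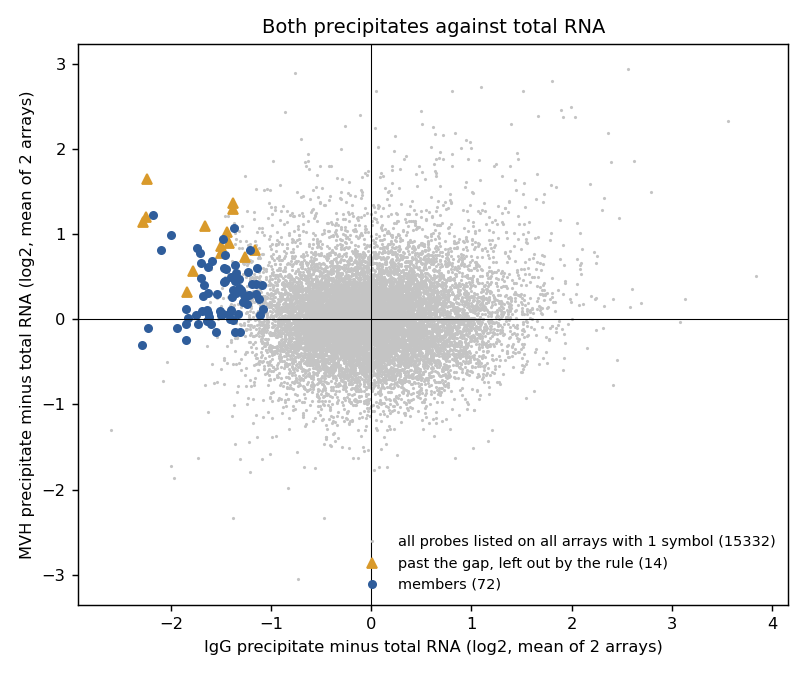
Each point is a probe, with the IgG precipitate minus total RNA on the horizontal axis and the MVH precipitate minus total RNA on the vertical axis (log2, means of 2 arrays), for all 15332 probes (grey), the 14 left out by the rule (triangles) and the 72 members (circles). The members lie between -2.28 and -1.08 on the horizontal axis and between -0.31 and 1.23 on the vertical axis.

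For the contrasts that chose the members, the fit's calls are given for reference only. All 72 were called higher with MVH than with IgG (limma, adjusted p under 0.05), where 3.82% of 21574 probes were. That call depends on the arrays fitted: limma called 0 probes in this contrast with only its 4 arrays (4898 at an unadjusted p under 0.05), without MVH precipitate 2 (3890 at an unadjusted p under 0.05), and without either total RNA array (4898 each). None was called lower with IgG than in total RNA, where limma called 0 of 21413 probes (0.0%), although all 72 had an unadjusted p under 0.05, as did 3900 probes in both directions together. The count for IgG against total RNA depends on the setting too, with 489 probes lower when the dimmest 25% were left out and 395 with an offset. Turned to the other groups over the same 15332 probes, the gap alone found 13 probes at least 1 below on both MVH arrays. It found 25 on both total RNA arrays and 86 on both IgG arrays. The MVH cut and the symbol families were not applied to these counts. In the other direction the gap found 146 with IgG, 42 with MVH and 1 in total RNA. The log2 difference between the 2 arrays of a group had a standard deviation of 0.60 for IgG, 0.47 for MVH and 0.45 for total RNA.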

How the data were processed

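Total RNA of mouse testis and RNA precipitated with an MVH antibody or normal rabbit IgG were measured on 2 arrays each. The labels' protocols state that aminoallyl aRNA was made from each sample and labelled with Cy5, and also hold text on tumour tissue that was not used. The authors deposited a table of linear intensity per probe. How the scanner, background, scaling and blanks were handled is not given in the sources used here, and the number of arrays limits the precision.

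Intensities were converted to log2, centred on each array's median and, for display, scaled to a median of 30. Of 23473 probes, 16631 had 1 symbol and 6842 none, per the platform annotation. Symbols were updated through RefSeq (GRCm38.p6): 12622 were current, 3947 updated and 62 not matched. Members followed the rule in the opening paragraph. limma 3.58.1 (R 4.3.3) was fitted to all 6 arrays with 1 shared spread. A contrast was tested at probes listed on all 4 arrays of its groups, with Benjamini-Hochberg adjustment over all of them, and the steps were tested on simulated data. Motifs were searched in RefSeq promoters. Plots used matplotlib 3.10.9.

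The members and lists were chosen with earlier results of these data known. The lists were 8 of cell types, 5 of functions and 29 families by symbol. Genes were named by gap, brightness, difference from total RNA and list membership, and the other members to account for the whole set. Protein lengths, which had been planned, were not used here. Genomic span was taken instead. Alternatives changed the centring, the offset, the filter on dim probes, the gap, the drop rules, the replicates, the block by number, the arrays fitted and the variance trend.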

Additional observations from a re-analysis of the deposited data

How the results depend on the processing

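The number of probes lost with IgG, 72, was 50 to 87 with quantile normalization (72), centring on the 75th percentile (87), an offset (50), without the dimmest 25% of probes (64), with probes above total RNA kept (82), with the symbol families kept (74), with 1 probe per gene (71) and with symbols not updated (72). It was 181 with no centring, 166 with a gap of 0.8, 3 with a gap of 1.5, and 69 to 375 when 1 array was left out. Of the 72 members, 72 met the rule with no centring, 69 with the 75th percentile, 58 with quantile normalization and 49 with the offset, and 43 met it under all 4. Members such as Phf7, Dcaf12, Mkrn2 and Rnft1 did not meet it under quantile normalization. The median difference between MVH and total RNA, 0.29, was 0.26 to 0.30 under the other scalings and 0.14 to 0.29 when 1 array was left out, and stayed above 0 in each.

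The limma counts moved more. Probes called between MVH and IgG, 1719 in all, numbered 2058 with the 75th percentile, 2051 with quantile normalization, 823 with no centring, 3067 with an offset, 3262 without the dimmest 25%, 3143 with a variance trend, 0 with only the 4 arrays of the contrast (4898 at an unadjusted p under 0.05) and 0 to 1327 when 1 array was left out. Those between IgG and total RNA, 2 in all, numbered 211, 141, 5, 1118, 1368, 1253, 1 and 0 to 58 under the same settings, and those between MVH and total RNA, 3 in all, numbered 8, 3, 19, 93, 173, 180, 6 and 0 to 10. The arrays numbered alike in different groups share only a number in the labels, and their deviations from the group means correlated at 0.10 to 0.16. With the number as a replicate block the counts were 2263, 150 and 4. Where 1 array was left out, the lone array of its group is assumed to vary like the others. The cause of these shifts was not tested. With 2 arrays a group and dim signals on the IgG arrays, the size of a member's deficit is uncertain, and its direction was set by the rule.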

Other observations

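The 14 probes that passed the gap but were left out by the rule show the same deficit with IgG. In 12 of them both MVH arrays also lay at least about 1.5-fold above both total RNA arrays. Sqor, which oxidises sulfide in mitochondria, had the largest gap of all, at 751 and 1277 with MVH, against 107 and 77.7 with IgG and 400.3 and 489 for total RNA. Vars2, the valyl-tRNA synthetase of mitochondria, read 616 and 684 with MVH, against 101 and 90.4 with IgG and 279 and 328 for total RNA. Ccer1, a coiled-coil protein gene, read 2221 and 2285 with MVH, against 475 and 405 with IgG and 1244 and 1231 for total RNA, and Fkbpl 2261 and 2411, 463 and 501, and 1366 and 1351. Kif2b, Zfp474, Thrap3, Zswim2, Atp1a4, Ppp2r1b, Ero1b and Cdkn3 were left out as higher with MVH as well. Only Ddx49, a helicase gene, and Psmf1, a proteasome inhibitor, were left out by symbol alone, and the arrays of Psmf1 with MVH and of total RNA overlapped. Psmf1 read 6905 and 5556 with MVH, against 1386 and 1379 with IgG and 3929.9 and 6254 for total RNA. These genes were named after their values were seen.

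A further 26 probes listed on all arrays passed the gap but have no symbol in the annotation used here, so that 112 probes passed it in all. Another 19 probes with 1 symbol were blank on both IgG arrays and listed on the other 4, against 9 blank on both MVH arrays and 21 on both total RNA arrays. All of these were dim, with a median scaled intensity of 3.15 on the other arrays for those blank with IgG.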
